A study of Homo sapiens with 12 samples.

Results

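ATF4 is a transcription factor of the integrated stress response, and 10 genes of that pathway are described here across the cells' treatments: ATF4 itself and DDIT3, ASNS, TRIB3, CHAC1, SESN2, PSAT1, PHGDH, DDIT4 and PPP1R15A. They were chosen by gene symbol, as ATF4 and genes widely used as readouts of its activity, and each matched 1 of the 60609 annotated genes. All 10 passed the filter on low values and are among the 17185 genes tested. When amino acids run short, proteins misfold or double-stranded RNA is sensed, kinases phosphorylate the initiation factor eIF2α, which slows translation in general while the ATF4 mRNA is translated more. ATF4 protein then raises transcription of genes for amino acid synthesis, uptake and tRNA charging, and of regulators that restrain or redirect the response. PKR, encoded by EIF2AK2, is the eIF2α kinase that senses double-stranded RNA, of which poly I:C is a synthetic form.

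The cells were NS-SV-AC, an immortalised line from the acinar cells of a human salivary gland. They were given DMSO (the solvent control), 2-CM (2'-C-methyladenosine, a nucleoside analogue) or RES (resveratrol, a plant polyphenol), and were transfected with poly I:C or with the control that the labels call depc. Each of the 6 combinations had 2 replicates, which gave 12 libraries of polyadenylated RNA; 2-CM and RES were given at 20 (labelled μm, read as micromolar) 24 h before transfection and again with it, and poly I:C was left for 14 h. The series asks how the compounds alter the response to double-stranded RNA. All groups are the same line under different treatments, so no other cell line or primary tissue stands beside them. Nothing in the labels says that replicates came from separate cultures, so p-values measure only the spread between these libraries.

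Libraries held between 31.2 M and 49.4 M reads estimated from the deposited coverage, and between 13438 and 16554 genes with a TPM of at least 1 (TPM, an abundance per unit of transcript length, scaled to the same sum in each library). Defining markers of acinar cells were largely absent: AQP5, MUC7, PIP and STATH were listed at 0 in every library, and the 8 acinar markers summed to between 1.90 and 8.96 TPM. Of 7 epithelial markers, KRT8 and KRT18, keratins of simple epithelia, were abundant, with group means of 713 to 1860 and 522 to 1510 TPM. KRT5 and KRT14 were listed at 0 throughout, and KRT19, CDH1 and EPCAM reached at most 0.243, 0.596 and 1.23 TPM. Of 3 fibroblast collagens, COL1A1 was at a mean of 67.7 and COL3A1 at 45.3 TPM in DMSO depc, while COL1A2 reached at most 0.019 TPM. PTPRC and CD3E, which mark leukocytes, were listed at 0 in every library. The 6 interferon-induced genes used to check the transfection were all called higher with poly I:C under each compound. Replicates within a group differed in a way that followed the GC content of genes. Across the tested genes, which are not independent, the log2 difference of replicate 1 from replicate 2 had a Spearman correlation with GC content of -0.78 in RES depc, but 0.77 in RES poly I:C. In the other groups it lay between -0.77 and -0.43. Values are therefore given as deposited and, where it changes a call, also after a smooth trend on GC content was removed from each library (GC-corrected).

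On the TPM scale as deposited, ATF4 mRNA was abundant in every library and varied little. ATF4 (ENSG00000128272.14, chromosome 22, 39519695 to 39522685, plus strand of GRCh38) was at 191 and 189 TPM with DMSO depc, 177 and 168 with DMSO poly I:C, 235 and 222 with 2-CM depc, 225 and 237 with 2-CM poly I:C, 158 and 168 with RES depc, and 172 and 154 with RES poly I:C. In order of group means on the TPM scale, both 2-CM groups were highest, at 231 ± 8.21 TPM with poly I:C and 229 ± 8.73 with depc (SD, n = 2), and did not differ beyond their spread on that scale. The order turns with the scaling: with median-of-ratios scaling ATF4 was lower with poly I:C than with depc under 2-CM (-0.83), and lower under 2-CM than under DMSO with poly I:C (-0.36). DMSO depc followed at 190 ± 1.12, then DMSO poly I:C at 172 ± 6.90. Both RES groups were lowest, at 163 ± 12.3 with poly I:C and 163 ± 6.64 with depc, and their values overlapped those of DMSO poly I:C. The highest library was 1.53 times the lowest, the narrowest range of the 10 genes.

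**Figure D1:**
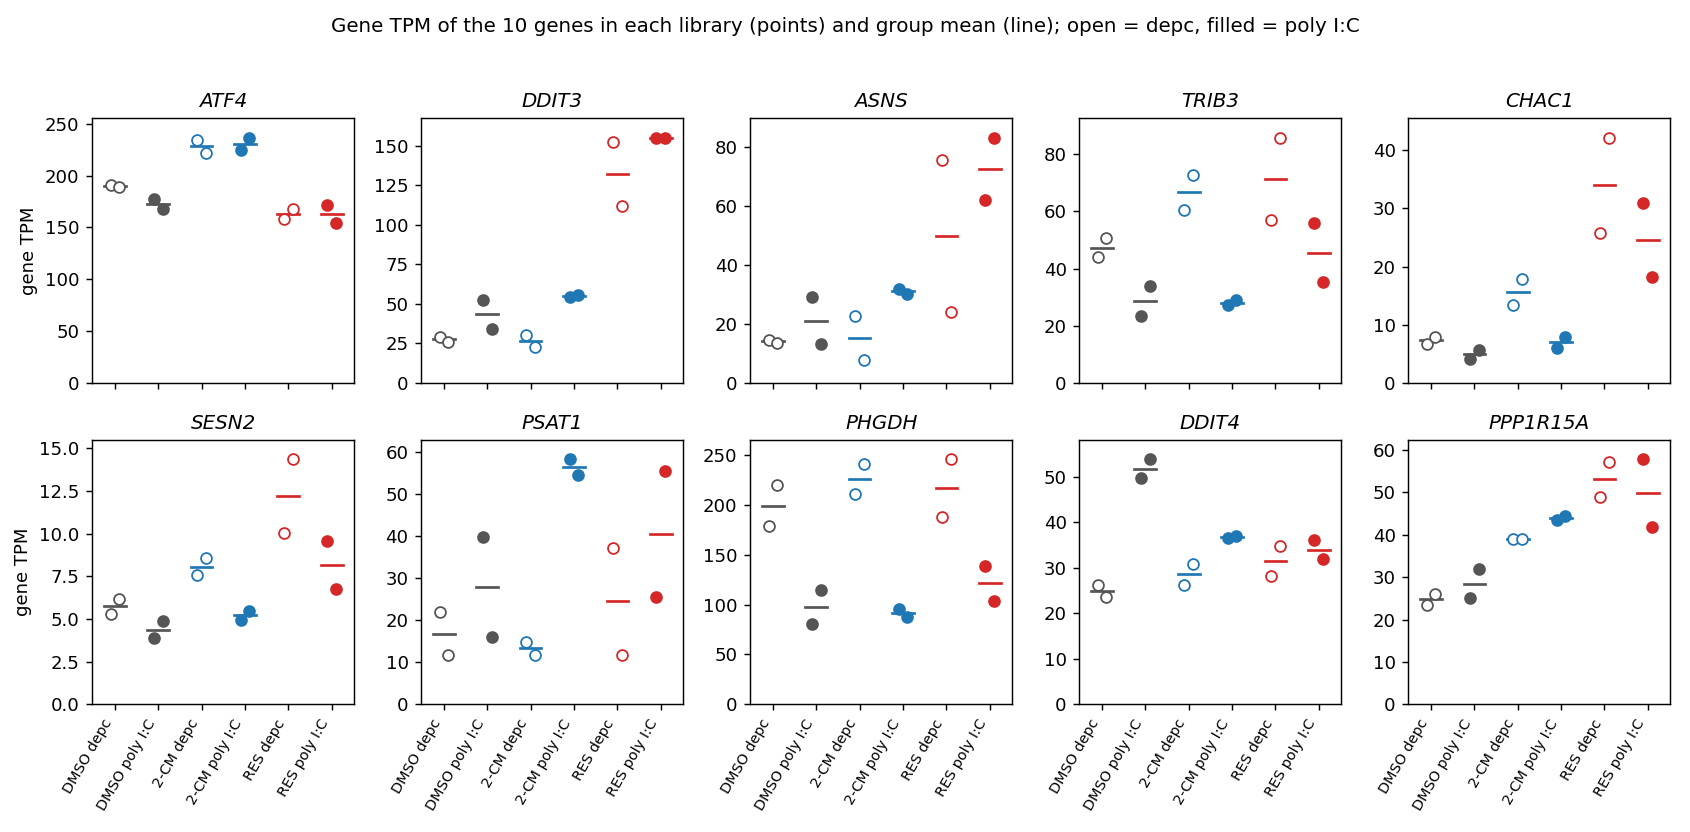
Gene TPM (y axis, linear from 0, a separate scale per gene) of the 10 genes in each of the 12 libraries, by group on the x axis; points are libraries, lines are group means of 2, open points are depc and filled points poly I:C. DDIT3 and CHAC1 lie higher in all 4 RES libraries than in any other library, while ATF4 stays between 154 and 237 TPM.

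Short stretches of promoter are shown for 4 genes with higher mean TPM under RES than under DMSO: 3 hold a letter pattern named in work on this response, and DDIT3 is shown beside them as one that does not. The patterns were searched on both strands in the 250 bases before each RefSeq start site (GRCh38.p14): TGATGNAA, the core of the C/EBP-ATF composite element, TGACGTCA, the palindromic cyclic AMP response element, and the consensus endoplasmic reticulum stress element. All 10 genes had an entry, with 15 start sites in all. TGATGNAA was present in 3.14% of all 35116 promoters, TGACGTCA in 1.65% and the third pattern in 0.074%. The first matched ASNS and CHAC1, the second PPP1R15A and the third none of the 10 genes. The windows for ASNS (chr7:97872458-97872487, minus strand) and CHAC1 (chr15:40953251-40953280, plus strand) are 30 bases, since other annotated transcripts have exons there. The stretches for PPP1R15A (chr19:48872171-48872420, plus strand) and DDIT3 (chr12:57520518-57520767, minus strand) are the full 250 bases. Capitals mark the match, which in CHAC1 is on the opposite strand. The match begins 68 bases before the start site in ASNS, 209 in CHAC1 and 58 in PPP1R15A. DDIT3, which with CHAC1 differed most between RES and DMSO, has no match, which says only that these letters are not in this window.
ASNS: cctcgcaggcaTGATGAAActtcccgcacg
CHAC1: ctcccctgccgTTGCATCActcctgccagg
PPP1R15A: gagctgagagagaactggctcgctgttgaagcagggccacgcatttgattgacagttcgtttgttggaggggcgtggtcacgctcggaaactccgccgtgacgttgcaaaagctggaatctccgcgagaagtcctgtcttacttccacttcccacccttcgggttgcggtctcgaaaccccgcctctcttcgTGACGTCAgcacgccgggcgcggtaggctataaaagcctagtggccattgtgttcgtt
DDIT3: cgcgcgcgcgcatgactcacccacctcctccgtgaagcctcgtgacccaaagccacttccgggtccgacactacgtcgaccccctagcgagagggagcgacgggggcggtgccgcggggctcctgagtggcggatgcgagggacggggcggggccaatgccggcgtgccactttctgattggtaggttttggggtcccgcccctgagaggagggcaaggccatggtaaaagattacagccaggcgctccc

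RES was compared with DMSO to ask what the compound alone did to these genes, without and with poly I:C. With depc, DDIT3 (the pro-apoptotic factor CHOP) and CHAC1 (an enzyme that degrades glutathione) rose to 4.80 and 4.65 times their DMSO means, while ATF4 mRNA was at 163 against 190 TPM. No other of the 10 genes passed the test in that comparison. Calls are at a limma p under 0.05 after Benjamini-Hochberg adjustment over all 17185 genes, and differences are of log2(TPM + 1). RES with depc called 2 of the 10 genes, both higher, where 1.03% of all genes were called in either direction, 0.838% higher and 0.192% lower. Over all genes the calls were 144 higher and 33 lower on TPM, and 6 and 7 with median-of-ratios scaling. The median difference was 0.75 over the 10 genes and 0.15 over all genes. In bulk RNA, a change in every cell and a change in the share of cells that express a gene cannot be told apart, and neither can fewer cells of a type and less RNA per cell.

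DDIT3 (ENSG00000175197.12, chromosome 12, 57516588 to 57521737, minus strand) was at 29.0 and 26.0 TPM with DMSO depc and at 152 and 112 with RES depc. With poly I:C it was at 52.2 and 34.3 under DMSO and at 155 and 155 under RES. All 4 RES libraries lay above every other library, the highest of which was 2-CM poly I:C replicate 2 at 55.2. The difference of RES from DMSO was 2.21 (SE 0.25, limma adjusted p 0.0133) with depc and 1.85 (SE 0.25, adjusted p 0.0393) with poly I:C. With poly I:C, DDIT3 was the only 1 of the 10 genes called, against 0.157% of all genes in either direction, 0.0698% higher and 0.0873% lower. The depc call was lost when DMSO depc replicate 1 or 2, 2-CM poly I:C replicate 1 or 2, or RES depc replicate 1 was left out, with adjusted p-values up to 0.189 and differences from 1.99 to 2.43 over all 12 libraries left out in turn. It was also lost in a fit of only the groups compared (adjusted p 0.741). The poly I:C call held without either RES depc library and was lost without any 1 of the other 10, with adjusted p-values up to 0.254 and differences from 1.55 to 2.14. It was also lost with upper-quartile scaling (1.54, adjusted p 0.0539) and median-of-ratios scaling (1.52, adjusted p 0.0634), without the filter on low values (adjusted p 0.0506) and with only the groups compared (adjusted p 0.835).

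DDIT3 overlaps MARS and MBD6 on the opposite strand and MIR616 and AC022506.1 on its own, and no strand option was recorded, so its gene total is uncertain. Its exons between 57517570 and 57520709 lie outside the spans of both opposite-strand genes, and their estimated reads were therefore summed alone. Libraries held 52.5 to 401 such reads against 567 to 4225 for the whole gene, so most of its signal is not covered by this check. Genes on the same strand were not set apart. The reads in these exons were then compared between groups. Scaled to library size (CPM of estimated reads), they came to 1.30 and 1.61 with DMSO depc, 2.20 and 1.89 with DMSO poly I:C, 8.68 and 5.80 with RES depc, and 8.35 and 7.86 with RES poly I:C. The 2-CM libraries ranged from 1.32 to 2.31, so in these exons too the RES libraries lay above all others. MARS itself, a tRNA synthetase, was at 175 and 175 TPM with DMSO depc and at 150 and 160 with RES depc.

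CHAC1 (ENSG00000128965.13, chromosome 15, 40952962 to 40956512, plus strand) was at 6.71 and 7.91 TPM with DMSO depc and at 25.8 and 42.2 with RES depc. With poly I:C it was at 4.14 and 5.60 under DMSO and at 30.9 and 18.2 under RES. All 4 RES libraries exceeded every other library, the next being 2-CM depc replicate 2 at 17.8. The difference was 2.04 (SE 0.34, adjusted p 0.0381) with depc and 2.09 (SE 0.34, adjusted p 0.0624) with poly I:C, which missed the threshold. The depc call held without either RES poly I:C library and was lost without any 1 of the other 10 libraries, with adjusted p-values up to 0.281 and differences from 1.69 to 2.38. It was also lost with FPKM (adjusted p 0.0659), upper-quartile scaling (0.137), median-of-ratios scaling (0.190), estimated reads (0.0641) and only the groups compared (0.741). With a block for replicate number it was lost too (adjusted p 0.0580). One transcript, ENST00000617768.5, held between 89.1% and 98.7% of the gene's TPM.

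ASNS, which makes asparagine, was higher with RES in mean but its replicates lay far apart. ASNS (ENSG00000070669.17, chromosome 7, 97851677 to 97872542, minus strand) was at 14.4 and 13.6 TPM with DMSO depc, 75.5 and 24.1 with RES depc, 28.9 and 13.2 with DMSO poly I:C, and 62.0 and 83.1 with RES poly I:C. RES and DMSO libraries did not overlap under either transfection, although RES depc replicate 2, at 24.1, lay below DMSO poly I:C replicate 1, at 28.9. The difference was 1.55 (SE 0.61, adjusted p 0.270, 95% interval 0.17 to 2.93) with depc and 1.82 (SE 0.61, adjusted p 0.234, interval 0.44 to 3.20) with poly I:C. With depc it was 0.74 without RES depc replicate 1 and 2.35 without RES depc replicate 2, and with poly I:C it ranged from 1.28 to 2.36 when replicate 2 or replicate 1 of DMSO poly I:C was left out. ASNS shares its strand and most of its span with AC079781.5, which was at 1.46 to 7.53 TPM.

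PPP1R15A, SESN2 and TRIB3 were also higher with RES by smaller amounts, and none of these differences passed the test. PPP1R15A (ENSG00000087074.8, chromosome 19, 48872421 to 48876058, plus strand) encodes GADD34, the phosphatase subunit that reverses eIF2α phosphorylation. It was at 23.5 and 26.0 TPM with DMSO depc, 49.0 and 57.2 with RES depc, 25.03 and 31.9 with DMSO poly I:C, and 57.8 and 41.8 with RES poly I:C. Every RES library lay above every DMSO library, with differences of 1.07 (SE 0.21, adjusted p 0.0571) with depc and 0.78 (SE 0.21, adjusted p 0.162) with poly I:C.

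SESN2 (ENSG00000130766.5, chromosome 1, 28259518 to 28282491, plus strand) encodes a leucine-binding inhibitor of mTORC1 signalling. It was at 5.31 and 6.17 TPM with DMSO depc, 10.02 and 14.3 with RES depc, 3.90 and 4.86 with DMSO poly I:C, and 9.56 and 6.77 with RES poly I:C. RES and DMSO libraries again did not overlap, with differences of 0.95 (SE 0.26, adjusted p 0.113) and 0.76 (SE 0.26, adjusted p 0.242). TRIB3 (ENSG00000101255.11, chromosome 20, 362835 to 397559, plus strand), a pseudokinase induced by ATF4 and DDIT3 that restrains ATF4, was at 44.01 and 50.7 TPM with DMSO depc and at 57.1 and 85.8 with RES depc. Its differences were 0.56 (SE 0.29, adjusted p 0.457) with depc and 0.64 (SE 0.29, adjusted p 0.397) with poly I:C. For TRIB3 the first was 0.27 without RES depc replicate 2 and 0.85 without RES depc replicate 1, and the second 0.31 without RES poly I:C replicate 1 and 0.97 without RES poly I:C replicate 2.

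For ATF4 mRNA the RES difference was -0.22 (SE 0.13, adjusted p 0.534, 95% interval -0.52 to 0.08) with depc and -0.08 (SE 0.13, adjusted p 0.807, interval -0.38 to 0.22) with poly I:C. After GC correction it was -0.44 (adjusted p 0.0502) with depc and -0.30 (adjusted p 0.188) with poly I:C. With 1 library left out, the difference as deposited ranged from -0.26 to -0.18 with depc and from -0.157 to -0.0037 with poly I:C. As deposited, under both transfections the interval for ATF4 lay wholly below that for DDIT3. ATF4 protein was not measured in these files.

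GC correction narrowed the replicate spread of most of the 10 genes and raised the number called with RES. The pooled replicate SD on the log2(TPM + 1) scale went from 0.25 to 0.12 for DDIT3, from 0.71 to 0.42 for ASNS, from 0.71 to 0.25 for PSAT1 and from 0.35 to 0.17 for CHAC1. It widened for ATF4, from 0.06 to 0.10, and for PHGDH, from 0.25 to 0.33. With depc, 5 of the 10 genes were then called, all higher, where 11.3% of all genes were called in either direction and 5.55% higher. These were DDIT3 (2.02, adjusted p 0.000296), CHAC1 (1.83, adjusted p 0.000540), PPP1R15A (0.85), SESN2 (0.72) and ASNS (1.42). With poly I:C, 6 were called, where 6.99% of all genes were called. The same 5 genes were higher and DDIT4 was lower, at -0.82 (adjusted p 0.00451). The 6 fibroblast markers summed to 130 and 144 TPM in the libraries of DMSO depc and to 84.8 and 96.1 in those of RES depc. With depc, none of the 5 tested was called as deposited and all 5 were called lower after GC correction, as was KRT18 of the epithelial markers (-0.60, adjusted p 0.0470). DCN (-1.20) and LUM (-1.28) were called lower with poly I:C after GC correction, and the fibroblast markers summed to 51.1 and 85.1 TPM under DMSO and to 50.9 and 70.8 under RES. The part of these markers in the RES differences was not tested.

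**Figure D2:**
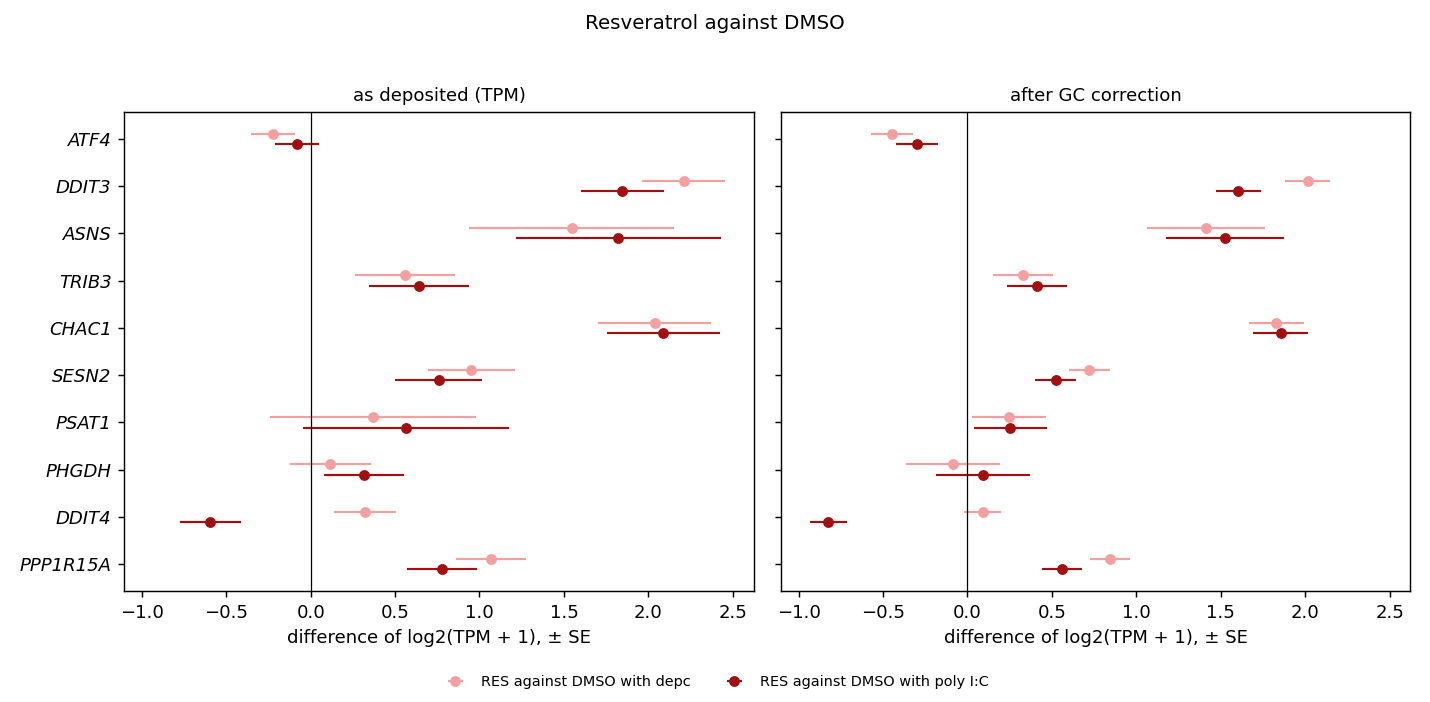
Difference of RES from DMSO in log2(TPM + 1) (x axis, bars are the SE from the fit over 12 libraries) for each of the 10 genes (y axis), with depc in light and poly I:C in dark, as deposited on the left and after GC correction on the right. DDIT3 and CHAC1 lie between 1.60 and 2.21 in both panels, ATF4 lies below 0, and the bars of ASNS and PSAT1 shorten after correction.

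**Figure D3:**
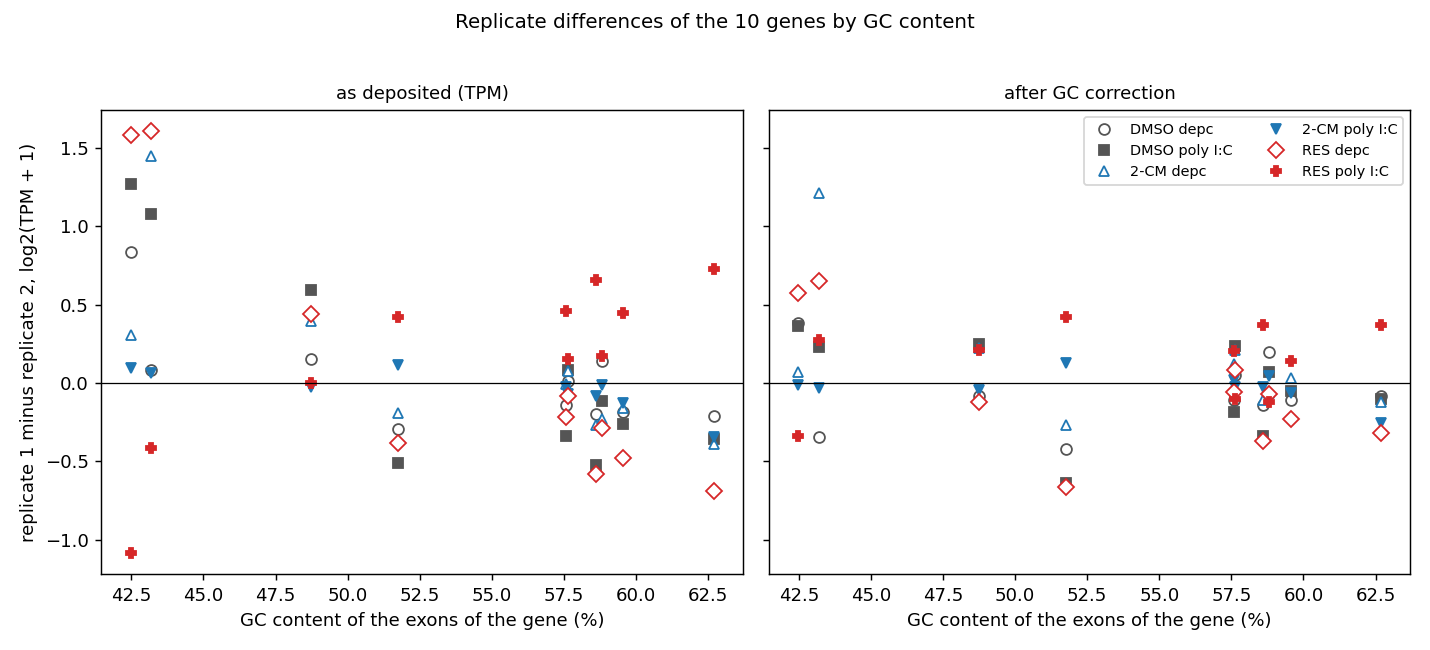
Replicate 1 minus replicate 2 in log2(TPM + 1) (y axis) for the 10 genes by the GC content of their exons in percent (x axis), as deposited on the left and after GC correction on the right, with a symbol for each of the 6 groups. ASNS and PSAT1, at 43.2% and 42.5% GC, have the widest replicate differences as deposited, and those of RES poly I:C run opposite to the other groups.

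PSAT1 and PHGDH, which catalyse consecutive steps of serine synthesis, overlapped between RES and DMSO. PSAT1 (ENSG00000135069.14, chromosome 9, 78297125 to 78330093, plus strand) was at 21.9 and 11.8 TPM with DMSO depc, 37.2 and 11.8 with RES depc, 39.8 and 15.9 with DMSO poly I:C, and 25.7 and 55.5 with RES poly I:C. Replicates within RES depc differed 3.16-fold, and the RES and DMSO groups overlapped under both transfections. PHGDH (ENSG00000092621.12, chromosome 1, 119648411 to 119744226, plus strand), the first enzyme of the pathway, was at 179 and 219 TPM with DMSO depc and at 188 and 246 with RES depc, which also overlap.

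Poly I:C was compared with depc under each compound to ask how these genes responded to double-stranded RNA. Under DMSO, DDIT4 (REDD1, an inhibitor of mTORC1) rose to 2.08 times its depc mean and PHGDH fell, its depc mean being 2.04 times that with poly I:C. These were the 2 of 10 genes called, 1 in each direction, where 4.08% of all genes were called, 0.797% higher and 3.28% lower. The balance over all genes turned with the scaling, from 137 higher and 564 lower on TPM to 98 and 29 with median-of-ratios scaling, 96 and 42 with upper-quartile scaling and 88 and 37 with FPKM. The median difference was 0.02 over the 10 genes and -0.14 over all genes. After GC correction it was 0.32 over the 10 genes and 8.6e-05 over all genes. Under RES 0 of the 10 were called, where 0.442% of all genes were. An unadjusted limma p under 0.05 was reached by 1 of the 10, against 14.0% of all genes.

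DDIT4 (ENSG00000168209.5, chromosome 10, 72273924 to 72276036, plus strand) was at 26.1 and 23.7 TPM with DMSO depc and at 49.7 and 53.8 with DMSO poly I:C, a difference of 1.03 (SE 0.18, adjusted p 0.0279). Under 2-CM it went from 26.2 and 30.9 to 36.6 and 36.9, and under RES from 28.2 and 34.7 to 36.1 and 31.9. Both DMSO poly I:C libraries were thus the highest of the 12, and under RES the transfection groups overlapped. With poly I:C, DDIT4 was lower than under DMSO by 0.48 with 2-CM (-0.48, SE 0.18, adjusted p 0.126) and by 0.59 with RES (-0.59, SE 0.18, adjusted p 0.204), and neither passed the test. Tested directly, the response to poly I:C differed by -0.67 (SE 0.26, adjusted p 0.161) for 2-CM minus DMSO and -0.91 (SE 0.26, adjusted p 1.000) for RES minus DMSO. In these tests of the difference 0 of the 10 genes were called for either compound, where 0.0116% and 0% of all genes were, and 1 of the 10 had an unadjusted p under 0.05 in each, against 29.7% of all genes for 2-CM and 1.70% for RES. The antisense gene DDIT4-AS1 was listed at 0 in all libraries.

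PHGDH fell with poly I:C under DMSO by 1.03 on the log2 scale (SE 0.24, adjusted p 0.0499), from 179 and 219 TPM to 80.4 and 115. Under 2-CM it went from 211 and 241 to 95.3 and 88.0, and under RES from 188 and 246 to 139 and 103. In all 3 compounds the poly I:C libraries lay below the depc libraries. The difference was -0.84 under RES (SE 0.24, adjusted p 0.178), which did not pass. The DMSO calls of DDIT4 and PHGDH were lost without any 1 of the 8 DMSO and 2-CM libraries, and that of PHGDH also without either RES poly I:C library. Adjusted p-values then reached 0.241 and 0.318, with differences of 0.96 to 1.10 for DDIT4 and -1.29 to -0.78 for PHGDH. Both were also lost with FPKM, either other scaling, estimated reads and only the groups compared, with adjusted p-values of 0.0563 to 0.299 for DDIT4 and 0.207 to 0.406 for PHGDH. PHGDH was lost too without the filter on low values (0.0799) and with a block for replicate number (0.0617). Markers moved in the same comparison: COL1A1 (-1.95), PDGFRB (-1.11) and KRT18 (-0.92) were called lower. DCN and LUM went the other way, from means of 4.91 and 7.81 TPM to 9.98 and 16.3, and were not called, though DCN was called higher after GC correction. The fibroblast markers summed to 130 and 144 TPM with DMSO depc against 51.1 and 85.1 with DMSO poly I:C, and the epithelial markers to 2301 and 2494 against 1099 and 1733. Their part in these differences was not tested. The 34 annotated PHGDH transcripts were split unevenly, the share of ENST00000641947.1 ranging from 0% to 62.9% between libraries, so only the gene total is used.

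TRIB3 and DDIT3 did not pass under DMSO. TRIB3 went from 44.01 and 50.7 TPM to 23.3 and 33.9 with poly I:C, a difference of -0.73 (SE 0.29, adjusted p 0.211), and under RES from 57.1 and 85.8 to 56.0 and 35.1, a difference of -0.65 (SE 0.29, adjusted p 0.372). With 1 library left out in turn, these TRIB3 differences ranged from -0.99 to -0.47 under DMSO and from -0.97 to -0.32 under RES. DDIT3 was 0.60 higher with poly I:C under DMSO (SE 0.25, adjusted p 0.214), or 0.31 when DMSO poly I:C replicate 1 was left out and 0.90 when replicate 2 of that group was. After GC correction the DMSO comparison called DDIT3 (0.66, adjusted p 0.0122), DDIT4 (1.44) and PPP1R15A (0.57), all higher, and no longer PHGDH (-0.88, adjusted p 0.0604), where 15.9% of all genes were called, 7.13% higher and 8.8% lower. Under RES it called DDIT4 alone (0.53, adjusted p 0.0361), where 3.15% of all genes were called. Of the markers under RES, COL1A1 was called lower as deposited and after GC correction, and DCN higher after it. The epithelial markers summed to 1682 and 2331 TPM with RES depc and to 1098 and 1372 with RES poly I:C. The part of these markers in the differences was not tested.

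Under 2-CM, 5 of the 10 genes changed with poly I:C, in both directions. PSAT1 and DDIT3 rose to 4.24 and 2.07 times their depc means. PHGDH, TRIB3 and CHAC1 fell, their depc means being 2.47, 2.38 and 2.22 times those with poly I:C. Of these calls 2 were higher and 3 lower, where 49.3% of all genes were called, 37.5% higher and 11.8% lower. With median-of-ratios scaling that balance turned, from 6440 higher and 2035 lower to 3482 and 4046. The median difference was 0.09 over the 10 genes and 0.61 over all genes, and the differences of all genes had a Spearman correlation of -0.80 with GC content. The share of the 10 genes called was thus close to that of all genes. Of the markers, KRT18 (-1.32), KRT8 (-1.15) and COL1A1 (-1.14) were called lower and DCN (1.87), LUM (2.74) and EPCAM (0.88) higher. Of the 2 acinar markers tested, BHLHA15 was also called lower, at low means of 2.26 TPM with depc and 0.79 with poly I:C. The other, SLC12A2, had means of 2.50 with depc and 7.14 with poly I:C and was not called. After GC correction SLC12A2 was called lower and BHLHA15 was not called. EPCAM had its highest mean with 2-CM poly I:C and reached at most 1.23 TPM in any library. That is near the filter on low values, so its call is given as a description. The epithelial markers summed to 3210 and 3530 TPM with depc against 1390 and 1492 with poly I:C, and the fibroblast markers to 147 and 157 against 149 and 158. Their part in the differences of the 10 genes was not tested.

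PSAT1 was at 14.8 and 11.8 TPM with 2-CM depc and at 58.3 and 54.5 with 2-CM poly I:C, a difference of 2.01 (SE 0.61, adjusted p 0.0324), or 1.40 above the median of all genes. DDIT3 went from 30.2 and 22.8 to 54.3 and 55.2, a difference of 1.03 (SE 0.25, adjusted p 0.0274), or 0.42 above that median. TRIB3 went from 60.5 and 72.9 to 27.3 and 28.9, a difference of -1.21 (SE 0.29, adjusted p 0.0274). For each of these 3 genes the groups did not overlap. CHAC1 went from 13.3 and 17.8 to 6.04 and 7.96, a difference of -1.05 (SE 0.34, adjusted p 0.0355). For PHGDH the difference was -1.29 (SE 0.24, adjusted p 0.0240). Relative to the median of all genes, TRIB3, CHAC1 and PHGDH were lower by more, at -1.83, -1.66 and -1.90. All 5 calls were lost without any 1 of the 4 libraries compared, and that of CHAC1 also without DMSO depc replicate 1 or 2. Calls over all genes fell steeply too without either 2-CM depc library. With 1 library left out in turn, the difference ranged from 1.86 to 2.17 for PSAT1 and from 0.84 to 1.23 for DDIT3. It ranged from -1.35 to -1.08 for TRIB3, from -1.24 to -0.85 for CHAC1 and from -1.39 to -1.20 for PHGDH. Without the filter on low values the calls of DDIT3 (adjusted p 0.0611), TRIB3 (0.0641), CHAC1 (0.0815) and PSAT1 (0.0833) were lost. That of DDIT3 was also lost with upper-quartile scaling (0.42, adjusted p 0.162) and median-of-ratios scaling (0.20, adjusted p 0.498).

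For ATF4, DDIT4 and ASNS, none of them called on TPM, the direction under 2-CM turned with the scaling or with GC correction. Median-of-ratios scaling, which sets the typical gene near no difference, moved the median of all genes from 0.61 to 0.03. ATF4 differed by 0.01 (SE 0.13, adjusted p 0.935) on TPM but by -0.83 under median-of-ratios scaling. DDIT4 differed by 0.36 (SE 0.18, adjusted p 0.122) on TPM and by -0.47 under that scaling. ASNS, from 22.6 and 7.68 TPM to 31.7 and 30.2, differed by 1.16 (SE 0.61, adjusted p 0.130), by 0.43 to 1.88 without 2-CM depc replicate 2 or 1, and by -0.18 after GC correction. GC correction called DDIT3 (0.41), DDIT4 (0.75) and PPP1R15A (0.49) higher and TRIB3 (-0.84) and PHGDH (-1.56) lower, where 30% of all genes were called, 14.5% higher and 15.6% lower. It left PSAT1 at 0.59 (adjusted p 0.0636) and CHAC1 at -0.49 (adjusted p 0.0505), neither of them called. With the replicate block added to that correction DDIT3 was no longer called either (adjusted p 0.0510).

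In the authors' deposited table for 2-CM, 8 of the 10 genes had an adjusted p under 0.05, where 46.4% of its genes did. DDIT3, which was called on TPM, did not (0.23, adjusted p 0.443), nor did ASNS (0.15, adjusted p 0.901). In that table PHGDH stood at -2.26, TRIB3 at -2.11, CHAC1 at -2.02, SESN2 at -1.47, ATF4 at -0.82, PPP1R15A at -0.69 and DDIT4 at -0.50, with PSAT1 alone higher at 1.23. DDIT4 and PPP1R15A, called higher after GC correction, were thus called lower there. In the authors' deposited tables for DMSO and RES, 0 of the 10 genes passed, where 1.25% and 0.363% of the genes did. The authors' deposited table for DMSO gave DDIT4 the lowest adjusted p of the 10 genes, 0.105, at 1.24.

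**Figure D4:**
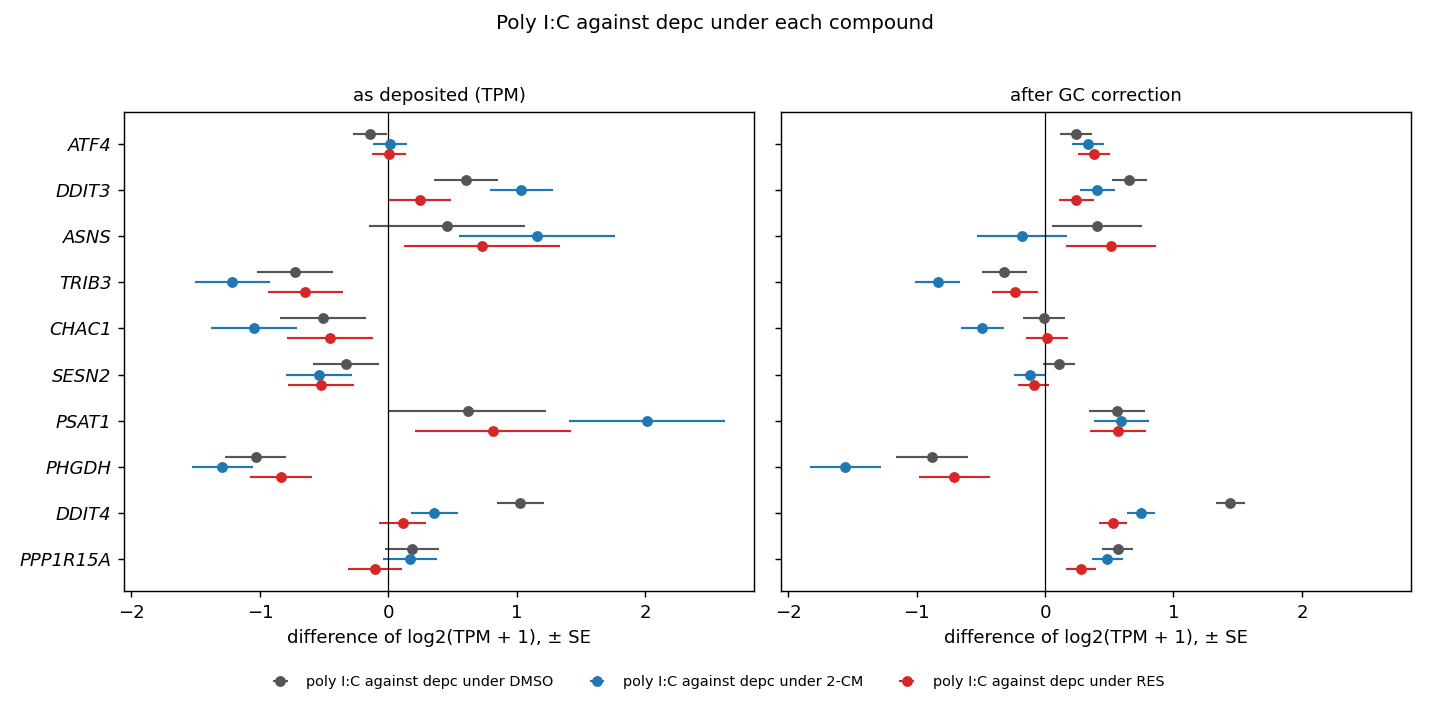
Difference of poly I:C from depc in log2(TPM + 1) (x axis, bars are the SE from the fit over 12 libraries) for each of the 10 genes (y axis) under DMSO in grey, 2-CM in blue and RES in red, as deposited on the left and after GC correction on the right. PHGDH and TRIB3 lie below 0 under all 3 compounds in both panels, and DDIT4 under DMSO lies highest of its 3 values in both.

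2-CM was compared with DMSO last. With depc 0 of the 10 genes were called, where 0.0349% of all genes were, 0.00582% higher and 0.0291% lower. With poly I:C also 0 were called, where 0.105% of all genes were, 0.064% higher and 0.0407% lower. An unadjusted limma p under 0.05 was reached by 2 of the 10 with depc, against 4.84% of all genes, and by 3 with poly I:C, against 34.2% of all genes. CHAC1 was at 13.3 and 17.8 TPM with 2-CM depc against 6.71 and 7.91 with DMSO depc, a difference of 0.99 (SE 0.34, adjusted p 0.721, 95% interval 0.22 to 1.75). PPP1R15A was at 39.0 and 39.1 TPM with 2-CM depc and at 43.5 and 44.4 with 2-CM poly I:C, above every DMSO library. Its differences were 0.64 (SE 0.21, adjusted p 0.721) with depc and 0.62 (SE 0.21, adjusted p 0.116) with poly I:C. ATF4 differed by 0.26 (SE 0.13, adjusted p 0.721) with depc and by 0.42 (SE 0.13, adjusted p 0.112, interval 0.12 to 0.72) with poly I:C. With poly I:C the median of all genes was 0.59, or 0.0029 under median-of-ratios scaling, where ATF4 stood at -0.36 and PPP1R15A at -0.14. After GC correction DDIT4 was called lower with 2-CM and poly I:C (-0.72, adjusted p 0.0178), where 4.50% of all genes were called. In that comparison COL1A1 was called higher as deposited (1.26, adjusted p 0.0446), and COL1A1 (1.02) and COL3A1 (0.90) were called higher after GC correction. The fibroblast markers summed to 51.1 and 85.1 TPM with DMSO poly I:C and to 149 and 158 with 2-CM poly I:C, and their part in these differences was not tested.

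Groups that did not overlap were common among all genes, and the 10 genes are read against that. With RES and depc, 7 of the 10 lay wholly above DMSO and 1 wholly below, where 25.7% and 8.47% of all genes did. With RES and poly I:C, the counts were 6 and 1, where 28.3% and 7.04% of all genes did. With 2-CM and depc, 6 lay above and 0 below, where 22.8% and 33.3% of all genes did. The 6 were ATF4, TRIB3, CHAC1, SESN2, DDIT4 and PPP1R15A, the most GC-rich of the 10 at 57.6% to 62.7%. In that comparison the differences of all genes had a Spearman correlation of 0.71 with GC content. After GC correction the median difference was 0.20 over the 10 genes and 0.01 over all genes, and 0 of the 10 were called. The part of GC content in this count was not tested. With 2-CM and poly I:C, 7 lay above and 1 below, where 70.4% and 6% of all genes did. For poly I:C against depc, 2 lay above and 5 below under DMSO, where 11.5% and 33.4% of all genes did. The 5 below were ATF4, TRIB3, CHAC1, SESN2 and PHGDH. Under DMSO the differences of all genes had a Spearman correlation of -0.36 with GC content. Under 2-CM 5 lay above and 4 below, where 62.6% and 23.9% did, and under RES 1 lay above and 3 below, where 6.05% and 24.1% did.

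A further 65 genes of or near the pathway were taken in 7 lists. They include upstream kinases, ATF6, XBP1 and 8 endoplasmic reticulum chaperones, so they are not a list of ATF4 targets. All but FGF21 passed the filter on low values. With RES and depc, 1 of the 64 was called higher and 0 lower, where 0.838% and 0.192% of all genes were, and their median difference was 0.16 against 0.15 over all genes. That gene was NUPR1, a stress-induced chromatin protein, at 0.151 and 0.125 TPM with DMSO depc and at 1.36 and 3.81 with RES depc (1.57, SE 0.29, adjusted p 0.0491). Its group means outside RES were 0.138 to 0.566 TPM, so it passed the filter on low values only through the RES libraries where it is high, and its call is given as a description. ATF3, a transcription factor downstream of ATF4, was at 6.28 and 3.91 TPM against 25.3 and 15.8 (1.82, adjusted p 0.0622). GC correction called 8 of the 64 higher and 2 lower, where 5.55% and 5.8% of all genes were. Among these GDF15, a secreted stress hormone, stood at 1.32 (adjusted p 0.00250) and ATF3 at 1.61 (adjusted p 0.00479), while SLC7A5, the leucine transporter, was lower at -1.30 (adjusted p 0.000440). Of 13 genes for tRNA charging and export (12 aminoacyl-tRNA synthetases and XPOT) and the 8 endoplasmic reticulum chaperones, 0 were called with RES and depc, with or without GC correction.

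With poly I:C under DMSO, 0 of the 64 were called higher and 7 lower, where 0.797% and 3.28% of all genes were. Amino acid transporters made up 4 of these: SLC7A5 (-1.33), SLC1A5 (-1.20), SLC7A1 (-1.01) and SLC1A4 (-0.88). The others were GPT2, which makes alanine, and the tRNA synthetases AARS and MARS. All 7 were also called lower after GC correction. Other scalings are not given for these genes. Over all genes the lower calls in this comparison fell from 564 on TPM to 29 with median-of-ratios scaling. Under 2-CM 20 were called higher and 15 lower, where 37.5% and 11.8% of all genes were, with a median difference of 0.84. That balance turned with GC correction, to 11 higher and 20 lower with a median of -0.15, where 14.5% and 15.6% of all genes were called. Under RES 0 were called, where 0.442% of all genes were. GC correction called 4 higher and 9 lower under DMSO, where 7.13% and 8.8% of all genes were, and 2 and 1 under RES, where 1.33% and 1.82% were. EIF2AK2, which encodes PKR, was at 8.85 and 5.02 TPM with DMSO depc and at 20.5 and 8.27 with DMSO poly I:C, which overlap, and rose under 2-CM from 3.46 and 2.35 to 49.1 and 39.1 (3.53, adjusted p 0.0209). GC correction called EIF2AK2 higher with poly I:C under all 3 compounds.

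The genes most like the 10 in their pattern over the 12 libraries were ranked by the Pearson correlation of log2(TPM + 1) with the mean z-score of the 10. That mean lay between -0.55 and -0.50 in the DMSO libraries, between -0.06 and 0.06 in the 2-CM libraries and between 0.20 and 0.69 in the RES libraries. HOXB9 followed it most closely at 0.98, then PLK3, TRAIP, ZNF513 and GSTT2B at 0.97. These 12 libraries share compounds and GC-linked shifts, and GSTT2B has a near-identical copy, so the ranking is a description. Among the 10, DDIT3 and ASNS correlated at 0.91 over the 12 libraries, and DDIT3 and ATF4 at -0.63. SESN2 and CHAC1 correlated at 0.97 and TRIB3 and PHGDH at 0.93, but PSAT1 and PHGDH at -0.82 and PSAT1 and TRIB3 at -0.73. GC correction changed some of these values. DDIT3, ASNS, CHAC1 and SESN2 correlated with each other at 0.84 to 0.97 after it, against 0.21 to 0.97 as deposited. PSAT1 and PHGDH were then at -0.90, and TRIB3 and ATF4 at -0.83 against -0.08 as deposited. The 10 genes thus did not share a single pattern, and their mean averages over opposing ones.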

How the data were processed

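Polyadenylated RNA from 12 libraries was sequenced as stranded paired reads, per the labels' protocols. HISAT2 2.1.0, StringTie, hg38 and DESeq2 are named in the submitters' processing notes. Per the file headers, StringTie 2.0.4 used GENCODE 32 with no strand option. The deposited transcript files give each transcript its TPM, FPKM and coverage as text attributes. The authors' deposited tables hold a mean normalised count signal, a log2 fold change with its error, a test score, and p-values and adjusted p-values.

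Transcript TPM was summed per gene with Python 3.11.15. Since the files hold no raw counts, the test was limma 3.58.1 in R 4.3.3 on log2(TPM + 1), with variances moderated along their trend, 6 group means and all 12 libraries in the fit. Genes needed a TPM of 1 in at least 2 libraries. The pseudocount of 1 understates changes of low genes. GC content came from the exons of each gene on hg38, and GC correction removed a lowess trend (span 0.2) of each library's deviation on it. This also removes any change that follows GC content. The script was tested on simulated data with independent spread for each gene and no GC-linked shifts, so that test does not cover such shifts.

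There were 9 comparisons: poly I:C against depc within each compound, each compound against DMSO under each transfection, and 2 differences of response. The 10 genes and all lists were chosen with earlier results of these data known. All 10 are named. List genes are named only in part: at most 4 of those called per list and comparison, and genes of lists with 8 or fewer. Not every list gene called is named. The 5 genes most like the pattern needed a mean TPM of 5.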

Additional observations from a re-analysis of the deposited data

How the results depend on the processing

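Counts of the 10 genes called are given with the share of all genes called under the same setting. Poly I:C under DMSO (2) called 0 with FPKM (0.727%), upper-quartile scaling (0.803%), median-of-ratios scaling (0.739%), estimated reads (1.48%) and only the groups compared (0.0349%), 1 without the low-value filter (2.06%), 3 with GC correction (15.9%; PHGDH lost, DDIT3 and PPP1R15A gained) and 7 with a covariate for replicate differences (38.2%). Under 2-CM (5) it called 1 without the filter (1.61%) and 8 with the covariate (75.1%). Under RES (0) it called 1 with GC correction (3.15%) and 5 with the covariate (36.3%). RES with depc (2) called 1, DDIT3, with FPKM (0.343%), upper-quartile scaling (0.151%), median-of-ratios scaling (0.0756%) and estimated reads (0.559%), 5 with GC correction (11.3%), 7 with the covariate (27.8%) and 0 with only the groups compared (0%). RES with poly I:C (1) called 0 with upper-quartile scaling (0.0989%), median-of-ratios scaling (0.134%), no filter (0.107%) and only the groups compared (0%), 6 with GC correction (6.99%) and 9 with the covariate (37.5%). 2-CM against DMSO (0 and 0) called 5 with depc (33.5%) and 6 with poly I:C (65.2%) with the covariate, and 1 with poly I:C with GC correction (4.5%). The differences of response called 4 for 2-CM (57.6%) and 1 for RES (0.716%) with the covariate. The covariate was the main axis of within-group replicate differences in these same values. By construction it takes up replicate spread and leaves each difference unchanged, so its higher counts lend no support. The cause of the other changes was not tested, except that no filter tests more genes and only the groups compared has fewer samples.

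Deviations of same-numbered libraries correlated at 0.15 to 0.76 in the 10 pairs of groups without RES poly I:C and at -0.80 to -0.31 in the 5 pairs with it, so the numbers were not taken as a pairing. With the replicate number as a block, poly I:C under DMSO called 1 (2.01%), losing PHGDH (adjusted p 0.0617), and RES with depc called 1 (0.25%), losing CHAC1 (0.0580). With the replicate block and GC correction together, RES called 5 with depc (10.5%) and 5 with poly I:C (5.78%), and 2-CM called 1 with poly I:C (3.27%). Against GC correction alone this lost DDIT3 with poly I:C under 2-CM (0.0510), DDIT4 with poly I:C under RES and SESN2 for RES with poly I:C.

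Leaving out single libraries lost calls of described genes for poly I:C under DMSO and 2-CM, and for RES with depc and with poly I:C. Calls over all genes, at their lowest, fell steeply too in these comparisons. The losses were thus not limited to the genes described. A lone library in a group is then assumed to vary like the others.

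GC correction changed the sign in 15 of the 90 values (10 genes in 9 comparisons), none of them called with or without it. Among the differences discussed for single genes, these reversed. ATF4 with poly I:C under DMSO was lower than with depc as deposited and higher with GC correction. Other settings are not given for ATF4 with poly I:C under DMSO or RES. ASNS with poly I:C under 2-CM (1.16) was -0.18 with GC correction, with or without the replicate block. DDIT4 in the same comparison (0.36) was -0.26 with upper-quartile and -0.47 with median-of-ratios scaling. ATF4 there (0.01) was -0.14 with FPKM, -0.62 with upper-quartile scaling, -0.83 with median-of-ratios scaling and -0.16 with estimated reads, and ranged from -0.025 to 0.053 with 1 library left out. For 2-CM against DMSO with poly I:C, PPP1R15A (0.62) was -0.050 and -0.14, and ATF4 (0.42) -0.27 and -0.36, with upper-quartile and median-of-ratios scaling.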
